A study of Homo sapiens with 12 samples.

Results

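The human mitochondrial chromosome encodes 37 genes, and all 37 rows of the deposited gene counts that lie on this chromosome were taken, out of 58735 genes in all. They comprise 2 ribosomal RNA (rRNA) genes, 22 transfer RNA (tRNA) genes and 13 protein genes. The plus strand, as annotated on GRCh38, carries both rRNA genes, 14 tRNA genes and 12 protein genes, and the minus strand carries 8 tRNA genes and 1 protein gene, MT-ND6. HaCaT is a spontaneously immortalized line from human skin, and TIGK is an immortalized line from human gingiva. Both were grown in DermaLife K Keratinocyte Complete Medium and either left untreated (0 mM H2O2, the control) or treated for 3 h with 5 mM H2O2. The 4 groups have 3 libraries of poly(A)-selected RNA each. The labels of treated replicates 2 and 3 name H2O3 and H2O4 where the treatment protocol names H2O2, and they were read as H2O2. Each line stands for 1 genetic background, so a difference between the lines cannot be told apart from one between skin and gingiva. The sources do not say whether the 3 libraries of a group came from separate cultures, and p-values measure the spread between these libraries.

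Mitochondrial DNA is transcribed from both strands as long RNAs that run over many genes. In most places a tRNA lies between neighbouring genes, and its excision by RNase P at one end and ELAC2 at the other releases the flanking rRNAs and messenger RNAs. MT-RNR1 is the 12S rRNA of the small mitochondrial ribosomal subunit and MT-RNR2 is the 16S rRNA of the large one. The protein genes encode subunits of respiratory complexes I (MT-ND genes), III (MT-CYB) and IV (MT-CO genes) and of ATP synthase (MT-ATP genes). Most of the messengers receive a poly(A) tail, the rRNAs receive a short one, the mRNA of MT-ND6 is known to lack one, and tRNAs end in CCA. In libraries selected for poly(A), less of an RNA and a shorter tail on it therefore cannot be told apart.

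The libraries held 30426401 to 49034244 counts. Counts on the mitochondrial chromosome made up 6.10%, 6.19% and 6.26% of the 3 HaCaT control libraries and 3.51%, 3.39% and 3.30% of the H2O2-treated ones. In TIGK the shares were 3.41%, 3.33% and 3.45% in control libraries and 1.5005%, 1.40% and 1.39% after H2O2. The share was lower in every treated library than in every control library of the same line, and over both lines it fell by 2.37 percentage points on average (exact permutation test within lines, two-sided, p = 0.005, the smallest it can give). A share cannot tell less mitochondrial RNA from more nuclear RNA, and bulk RNA cannot tell a change in some cells from a change in all. The keratinocyte label was checked on 8 markers (KRT5, KRT14, TP63 and others), whose summed level had group means of 31191 to 36721 CPM (counts scaled to the library total adjusted by its TMM factor). Fibroblast markers summed to group means between 10.1 and 25.7 CPM, and markers of melanocytes, immune cells and endothelium to at most 2.85 CPM.

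Sequences are shown here for the genes at which the noncoding part of the chromosome could or could not be counted. They were read from hg38, 5′ to 3′. The first pair are the tRNA genes that border the 1122-base noncoding region, which holds the promoters of both strands. Capitals mark the anticodon. MT-TP (chrM:15956-16023, minus strand) encodes the proline tRNA and MT-TF (chrM:577-647, plus strand) the phenylalanine tRNA.
MT-TP: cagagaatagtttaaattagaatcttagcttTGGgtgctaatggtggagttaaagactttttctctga
MT-TF: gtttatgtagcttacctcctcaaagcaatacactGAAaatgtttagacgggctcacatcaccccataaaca
The next stretch shows how a tRNA lies between both rRNAs. The 69 bases of MT-TV, the valine tRNA, are in capitals, the 25 bases before them are the end of MT-RNR1 and the 25 bases after them the start of MT-RNR2 (chrM:1577-1695, plus strand).
MT-TV: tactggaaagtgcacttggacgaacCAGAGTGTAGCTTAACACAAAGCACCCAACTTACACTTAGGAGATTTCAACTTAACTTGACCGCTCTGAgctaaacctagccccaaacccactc
The last stretch is the border of MT-ND5 and MT-ND6, whose ends meet on opposite strands. It is given as the plus strand, with the last bases of MT-ND5 in lower case and the 30 bases that belong to MT-ND6 on the other strand in capitals (chrM:14119-14178).
MT-ND5: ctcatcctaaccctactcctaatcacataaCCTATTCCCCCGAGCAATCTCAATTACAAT

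Of the 22 tRNA genes, 20 had 0 counts in all 12 libraries. A count of 0 allows up to 3 counts, a share of 9.86e-06% in the shallowest library, and this limit covers counting error only. MT-TV, whose sequence sits between the rRNAs above, was among the 20, although MT-RNR2 beside it averaged 204467 counts a library. MT-TF held 4 counts in total, 3 of them in TIGK control replicate 3 and 1 in HaCaT control replicate 1. MT-TP was the 1 tRNA gene that could be measured, with a mean of 556 counts. MT-TP and MT-TF are the 2 tRNA genes that border the noncoding region. The other 20 had an annotated gene within 31 bases on both sides, and each of the 22 is shorter than the 150-base reads. How reads that cover more than 1 gene were counted is not given in the sources used here. The levels of the other 20 tRNAs therefore remain unmeasured. They enter the tRNA ratios below at 0 counts, and no result below is about their level.

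All 15 rRNA and protein genes and MT-TP had a mean of at least 10 counts and were tested, together with all other genes that did, in edgeR's quasi-likelihood fit. A change was called at a Benjamini-Hochberg adjusted p under 0.01 over 16618 genes. After H2O2, 16 of the 16 tested mitochondrial genes were lower in TIGK, where 12.9% of all genes tested were called lower. In HaCaT 13 of 16 were lower, against a background of 15.2%, and MT-ATP6, MT-ND2 and MT-ND3 did not pass. These 3 depended on the settings: MT-ND2 passed under 4 of 7 other settings, and MT-ATP6 and MT-ND3 under 1 of 7 each. The median log2 fold change of the 16 genes was -0.97 in TIGK and -0.61 in HaCaT, and that of all genes tested was 0.0084 and 0.038. In each line, however, single genes ranged widely, from -3.86 to -0.49 in TIGK and from -3.07 to -0.14 in HaCaT.

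MT-RNR2, the 16S rRNA (chromosome MT, 1671 to 3229), had 471679, 479610 and 492186 normalized counts (raw counts scaled by TMM to an average library) in the HaCaT controls and 107878, 117534 and 121837 after H2O2. In TIGK it had 159941, 154973 and 152276 normalized counts in controls and 47434, 44282 and 41432 after H2O2. The groups did not overlap in either line, and treated HaCaT lay below untreated TIGK. The log2 fold change was -2.06 (SE 0.058, edgeR adjusted p = 5.2e-15) in HaCaT, which left 24.1% of the control level, and -1.81 (SE 0.058, adjusted p = 2.4e-14) in TIGK, which left 28.5%.

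MT-RNR1, the 12S rRNA (648 to 1601), lies upstream of MT-RNR2 on the same strand. Its normalized counts were 58257, 62690 and 59243 in HaCaT controls and 28624, 29522 and 32397 after H2O2. TIGK controls had 23462, 17822 and 16556 and treated TIGK 8147, 9527 and 8981. Here too the groups did not overlap, and TIGK control replicate 1 was the highest of its group. MT-RNR1 fell less than MT-RNR2, by 0.99 on the log2 scale in HaCaT (SE 0.095, edgeR adjusted p = 1.86e-07) and by 1.12 in TIGK (SE 0.096, adjusted p = 5.08e-08), to 50.3% and 46.1% of control.

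MT-TP, the proline tRNA gene, had 977, 921 and 841 normalized counts in HaCaT controls and 287, 230 and 217 after H2O2. In TIGK it had 739, 672 and 773 in controls and 305, 274 and 302 after H2O2. Treated libraries of both lines lay below all controls. The controls of HaCaT were the higher ones, whereas its treated libraries overlapped those of TIGK. The log2 fold change was -1.90 (SE 0.11, edgeR adjusted p = 3.56e-10) in HaCaT and -1.31 (SE 0.11, adjusted p = 4.16e-08) in TIGK. The MT-TP row counts reads over a 68-base gene. Whether the counting used strand is not given, so reads from the tRNA, from longer RNAs that run through it and from the opposite strand cannot be told apart.

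**Figure D1:**
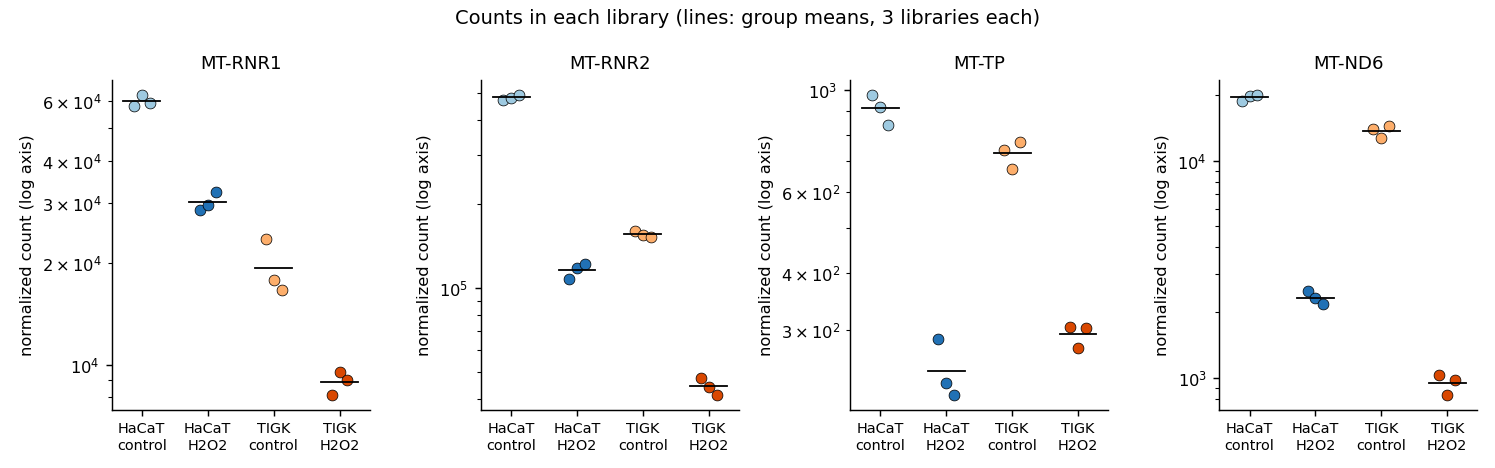
TMM-normalized counts of MT-RNR1, MT-RNR2, MT-TP and MT-ND6 in each of the 12 libraries, on log axes that differ between panels. Points are libraries and lines are group means, and in each panel the treated libraries of a line lie below its controls.

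Among the protein genes, MT-ND6, a complex I subunit and the only protein gene on the minus strand, had the largest fold change in both lines. Its normalized counts were 18882, 19828 and 20149 in HaCaT controls and 2521, 2325 and 2177 after H2O2. They were 14021, 12774 and 14392 in TIGK controls and 1027, 835 and 981 after H2O2. The groups were far apart, with 11.9% of the control level left in HaCaT (log2 fold change -3.07, SE 0.076, edgeR adjusted p = 1.29e-15) and 6.9% in TIGK (-3.86, SE 0.080, adjusted p = 3.8e-17). The mRNA of MT-ND6 lacks a poly(A) tail, and whether the counting used strand is not given. The MT-ND6 row may therefore also hold reads of the opposite strand, which carries MT-ND5.

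The smallest change in TIGK was that of MT-ND2, a complex I subunit, with 43373, 41732 and 44988 normalized counts in controls and 32087, 30817 and 29522 after H2O2 (log2 fold change -0.49, SE 0.063, edgeR adjusted p = 7.26e-06). The groups did not overlap. In HaCaT MT-ND2 had 115043, 107926 and 120962 in controls and 109667, 96385 and 93113 after H2O2, which overlap, and its log2 fold change of -0.20 (SE 0.063) had an adjusted p of 0.0132. It passed without HaCaT H2O2 replicate 1, at a log2 fold change of -0.31, an adjusted p of 0.000324. It also passed without TIGK control replicate 2, TIGK H2O2 replicate 2 or TIGK H2O2 replicate 3, at a log2 fold change of -0.24 in each.

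The smallest change in HaCaT was that of MT-ATP6, an ATP synthase subunit. HaCaT controls had 132122, 130868 and 138192 normalized counts and treated HaCaT 120286, 124355 and 118403 (log2 fold change -0.14, SE 0.059, edgeR adjusted p = 0.053). The groups did not overlap, but the change did not pass the test. In TIGK MT-ATP6 had 70251, 64954 and 75616 in controls and 40890, 36030 and 38139 after H2O2, and it fell by 0.87 on the log2 scale (SE 0.060, adjusted p = 2.1e-09).

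The remaining protein genes lay between these. Among the 7 complex I genes (MT-ND1 to MT-ND6 and MT-ND4L), 7 of 7 were lower in TIGK and 5 in HaCaT. Of all genes tested, 12.9% and 15.2% were called lower. All 16 tested mitochondrial genes were lower in TIGK, so the count there is not particular to complex I. MT-ND5 was at 10.0% of its control level in TIGK and at 36.0% in HaCaT, whereas MT-ND1 was at 55.4% and 56.1%. MT-CO1, the catalytic subunit of complex IV, was at 20.05% in TIGK and 38.4% in HaCaT. Its partner MT-CO2 was at 69.4% and 78.1%, and MT-CO3 at 61.4% and 68.7%. MT-CYB, the complex III subunit, was at 51.4% in TIGK and 74.8% in HaCaT. MT-ATP8, which shares 46 bases with MT-ATP6, was at 53.6% and 68.8%. It had 511 counts on average, the fewest of the protein genes, and its call in HaCaT was lost without HaCaT control replicate 2 (adjusted p = 0.0114). Reads in the overlaps of MT-ATP8 with MT-ATP6 and of MT-ND4L with MT-ND4 (7 bases) may have been assigned to either gene or to none.

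**Figure D2:**
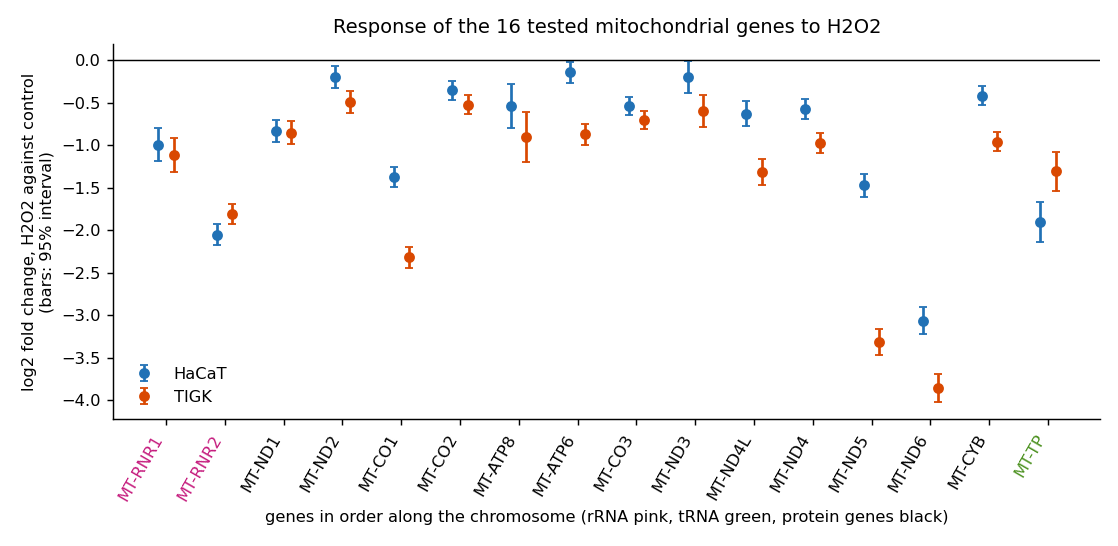
Log2 fold change of each of the 16 tested mitochondrial genes after H2O2, in HaCaT (blue) and TIGK (orange), with 95% intervals, in the order of the genes along the chromosome. Values run from -3.86 for MT-ND6 in TIGK to -0.14 for MT-ATP6 in HaCaT, and MT-RNR2 and MT-TP are the genes whose point for HaCaT lies below that for TIGK.

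To compare the noncoding genes with the protein genes of the same chromosome, the counts were next related to each other within each library. The 2 rRNA genes together had 0.302, 0.308 and 0.305 counts for each protein-gene count in HaCaT controls and 0.120, 0.131 and 0.142 after H2O2. In TIGK the ratio was 0.176, 0.172 and 0.161 in controls and 0.117, 0.123 and 0.115 after H2O2. Untreated HaCaT stood well above the other groups, and the treated libraries of both lines came close to each other. On the log2 scale the ratio was lower by 1.22 in HaCaT and by 0.52 in TIGK, a comparison of 3 against 3 libraries that cannot go below p = 0.1 and reached it in both lines (exact permutation test, two-sided). These ratios of summed counts follow the most abundant genes. With every gene weighted equally, as a mean of log2 counts, the difference was -0.73 in HaCaT (exact permutation test, p = 0.1) and -0.096 in TIGK (p = 0.5). Over both lines the ratio was lower by 0.87 (exact permutation test within lines, p = 0.005). With MT-RNR2 alone over the protein genes the difference over both lines was -0.999 (exact permutation test within lines, p = 0.005), and with MT-RNR1 alone it was -0.11 (p = 0.34), with a value of 0.097 in TIGK.

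The same question was put to the edgeR fit with the summed counts of the 13 protein genes as library size. This scale holds the sum of these genes fixed, so where abundant ones fall, others among them must come out higher. On the TMM scale none of the 13 was called higher after H2O2 in either line. Shares over all genes count mostly nuclear genes, which lie outside that sum. On this scale most nuclear genes shift upwards after H2O2, and 0.433% of all genes tested were called lower in TIGK and 2.46% in HaCaT. MT-RNR2 was lower against the protein genes by 1.38 on the log2 scale in HaCaT (SE 0.061, adjusted p = 1.08e-12) and by 0.61 in TIGK (SE 0.060, adjusted p = 6.37e-09). These values lay within the range of the protein genes themselves. In TIGK MT-ND6 (-2.66), MT-ND5 (-2.12) and MT-CO1 (-1.12) had larger decreases than MT-RNR2 and 8 protein genes were called higher, where 79.3% of all genes were. In HaCaT MT-ND6 (-2.40) alone had a larger decrease, MT-ND5 (-0.80) and MT-CO1 (-0.71) were also called lower, and 5 protein genes were called higher, where 61.4% of all genes were. MT-TP was lower by 1.23 in HaCaT (SE 0.12, adjusted p = 8.82e-09), while in TIGK its value was -0.11 (SE 0.11, adjusted p = 0.386). MT-RNR1 had a value of 0.088 in TIGK (SE 0.10, adjusted p = 0.432), which became -0.019 without TIGK control replicate 3. In HaCaT it had -0.32 (SE 0.10, adjusted p = 0.00953). That last call was lost in 8 of 12 fits that left out 1 library, with adjusted p from 0.0107 to 0.0429 and values from -0.34 to -0.27. Those libraries were each of the 3 HaCaT controls, HaCaT H2O2 replicates 1 and 2, TIGK control replicate 2 and TIGK H2O2 replicates 2 and 3.

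The balance of the rRNAs themselves shifted. MT-RNR1 and MT-RNR2 lie next to each other, with MT-TV between them, and are transcribed together. In HaCaT controls there were 0.124, 0.131 and 0.120 counts of MT-RNR1 for each count of MT-RNR2, and after H2O2 0.265, 0.251 and 0.266. In TIGK there were 0.147, 0.115 and 0.109 in controls and 0.172, 0.215 and 0.217 after H2O2. The ratio was higher in every treated library than in every control, by 1.06 on the log2 scale in HaCaT and 0.71 in TIGK, and by 0.89 over both lines (exact permutation test within lines, p = 0.005). TIGK control replicate 1 and TIGK H2O2 replicate 1 lay closest to each other. Without TIGK control replicate 1 the value in TIGK was 0.84, the highest of the 6 values that leave out a TIGK library.

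The tRNA ratio rests on MT-TP almost alone. In HaCaT controls there were 0.000557, 0.000524 and 0.000465 tRNA counts for each protein-gene count and after H2O2 0.000253, 0.000205 and 0.0002. In TIGK there were 0.00071, 0.000668 and 0.000741 in controls and 0.000644, 0.000627 and 0.000693 after H2O2. The HaCaT groups were clearly apart and the TIGK groups overlapped. The log2 ratio was lower by 1.24 in HaCaT (exact permutation test, p = 0.1) and by 0.11 in TIGK (p = 0.2).

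**Figure D3:**
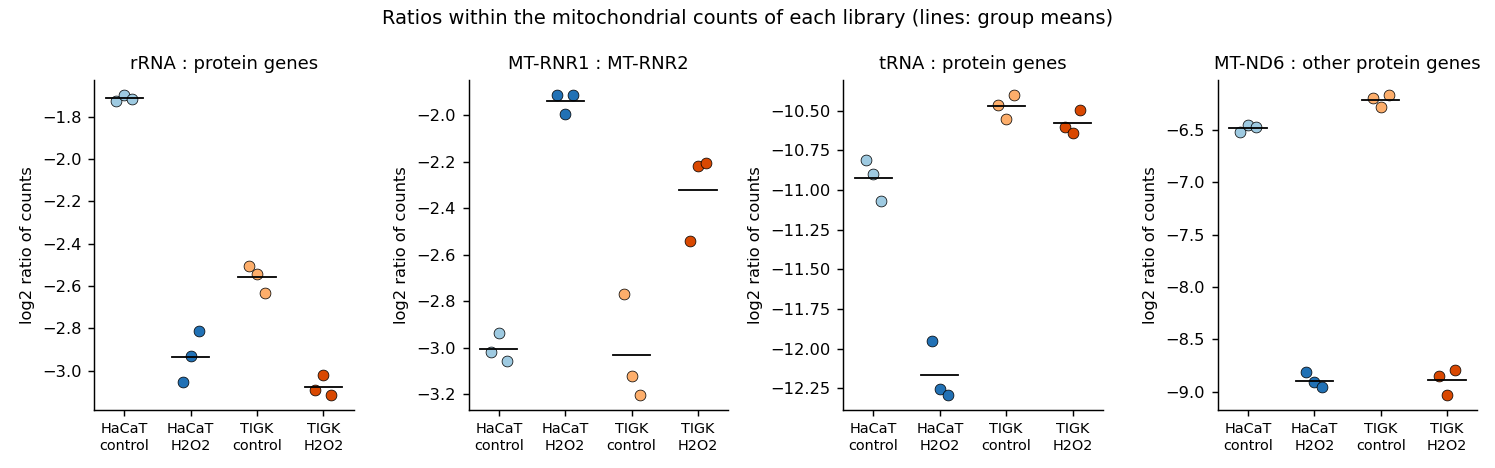
Log2 ratios of counts within each library for the rRNA genes over the protein genes, MT-RNR1 over MT-RNR2, the tRNA genes over the protein genes, and MT-ND6 over the other 12 protein genes. Points are libraries and lines are group means; the rRNA ratio of untreated HaCaT, at -1.71, is the highest of the 4 groups, and the tRNA ratio of treated HaCaT, at -12.2, is the lowest.

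MT-ND6 also changed against the 12 protein genes of the other strand. It had 0.0109, 0.0114 and 0.0113 counts for each count of these genes in HaCaT controls and 0.00223, 0.00208 and 0.00201 after H2O2. TIGK controls had 0.0136, 0.0129 and 0.0139 and treated TIGK 0.00217, 0.00191 and 0.00225. The controls lay far above the treated libraries, and after H2O2 the libraries of both lines overlapped. It was lower by 2.54 on the log2 scale over both lines (exact permutation test within lines, p = 0.005). Against MT-ND5 alone, the neighbour whose end it meets, MT-ND6 was lower by 1.59 in HaCaT and by 0.54 in TIGK (exact permutation test, p = 0.1 in each). The treated lines, whose ratios to the 12 genes differed by -0.0035 on the log2 scale (HaCaT minus TIGK), differed by -1.14 when MT-ND5 alone was the denominator (exact permutation test, p = 0.1). Reads that cross the border shown above, and reads of the MT-ND5 strand that run on over MT-ND6, cannot be told from MT-ND6 reads where strand was not used.

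The untreated lines differed at every tested mitochondrial gene. HaCaT was higher at 16 of 16 genes, where 29.1% of all genes tested were called higher, with a median log2 difference of 0.94. The rRNAs had the largest differences, 1.64 for MT-RNR1 (SE 0.097, edgeR adjusted p = 1.69e-11) and 1.63 for MT-RNR2 (SE 0.058, adjusted p = 8.02e-15). Against the protein genes both remained higher in HaCaT, by 0.86 (SE 0.10, adjusted p = 2.48e-07) and 0.84 (SE 0.060, adjusted p = 6.87e-11), a scale on which 7.9% of all genes were called higher. Of the 13 protein genes 4 were called higher on it and 4 lower, with values from -0.40 for MT-ND1 to 0.63 for MT-ATP8. The smallest difference on the TMM scale was that of MT-TP, 0.33 (SE 0.10, adjusted p = 0.00913). Its call was lost without HaCaT control replicate 1 or 2, TIGK control replicate 1 or 2 or TIGK H2O2 replicate 1, with adjusted p from 0.0115 to 0.051. Against the protein genes MT-TP was lower in HaCaT, by 0.45 (SE 0.11, adjusted p = 0.000807), where 64.9% of all genes were called lower.

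After H2O2, HaCaT was higher at 15 of 16 genes, where 30.2% of all genes were called higher, with a median difference of 1.43. MT-ND5 had the largest difference, 2.45, and MT-ND1 the smallest of those called, 0.40. MT-TP had a difference of -0.27 (SE 0.12, edgeR adjusted p = 0.0521), which passed as lower in HaCaT without HaCaT H2O2 replicate 1 (-0.44, adjusted p = 0.0031). Against the protein genes, MT-RNR2 differed by 0.075 (95% interval -0.050 to 0.20, adjusted p = 0.241). MT-RNR1 was higher in HaCaT by 0.45 (SE 0.10, adjusted p = 0.00048), where 4.08% of all genes were called higher, and MT-TP lower by 1.58 (SE 0.12, adjusted p = 1.38e-10), where 79.5% were called lower. Of the 13 protein genes 6 were called higher on this scale and 3 lower. Their values ran from -0.91 for MT-ND1 to 1.14 for MT-ND5, so MT-RNR1 lay within their range. These comparisons use the same libraries as the responses above and are not separate evidence.

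Per kilobase of gene, MT-RNR2 was in place 3 among the 37 genes in untreated HaCaT, with 308633 ± 6633 normalized counts per kb (SD, n = 3). MT-CO2 led with 422219 ± 12138, followed by MT-CO3 with 321961 ± 3334, and MT-CO1 came next with 301910, its libraries overlapping those of MT-RNR2. In untreated TIGK MT-RNR2 was in place 6 with 99891 ± 2494, and its libraries overlapped those of MT-ND4 just above it. After H2O2 it was in place 7 in both lines, with 74246 ± 4585 in HaCaT and 28469 ± 1926 in TIGK. In treated TIGK its libraries overlapped those of MT-ND2 and MT-ND1 on either side. MT-RNR1, with 62960 ± 2440 per kb in untreated HaCaT and 20210 ± 3854 in untreated TIGK, ranked 11 and 14. MT-ATP8 had the lowest level per kb of the 16 tested genes in all 4 groups, between 878 in treated TIGK and 4382 in untreated HaCaT. This short gene overlaps MT-ATP6, and how reads that cover several genes were counted is not given. A low RNA level and reads left uncounted therefore cannot be told apart for it.

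The makeup of the mitochondrial counts changed accordingly. In HaCaT rRNA went from 23.4% ± 0.20 (SD, n = 3) of mitochondrial counts to 11.6% ± 0.85, and in TIGK from 14.5% ± 0.56 to 10.6% ± 0.32. MT-CO1 went from 20.1% ± 0.36 to 14.2% ± 0.062 in HaCaT and from 26.9% ± 1.2 to 12.9% ± 0.58 in TIGK. MT-CO2 took the largest share of treated libraries, 17.9% ± 0.51 in HaCaT and 18.5% ± 0.22 in TIGK. These shares add up to 100% in each library, so a gene that fell little gained share.

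**Figure D4:**
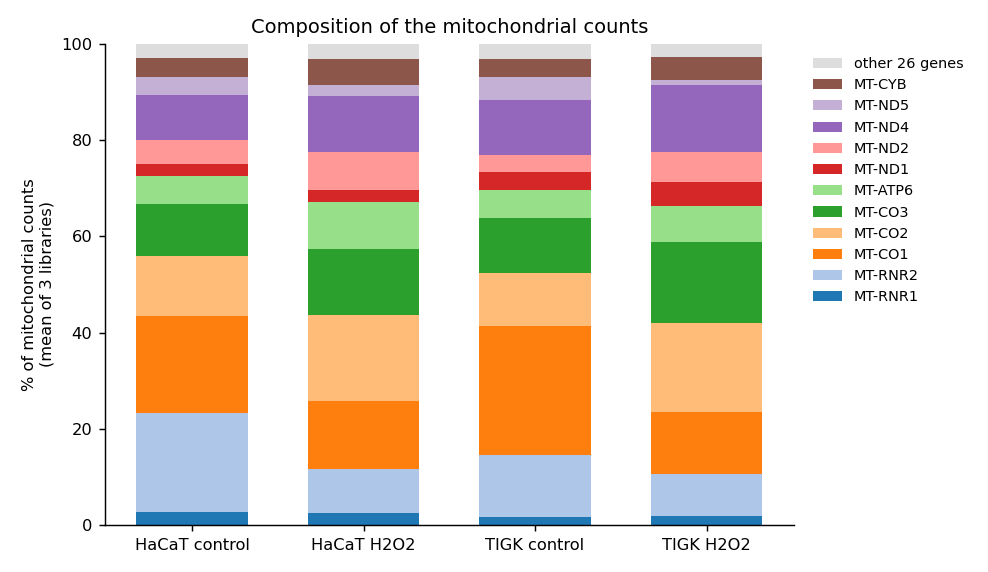
Mean share of each gene in the mitochondrial counts of the 4 groups, in percent, for 11 genes and the other 26 together. The band of MT-RNR2 is widest in untreated HaCaT (20.8%) and narrowest in treated TIGK (8.82%), and that of MT-CO1 is widest in untreated TIGK (26.9%).

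Whether the responses of the lines differed was tested as the difference of the log2 fold changes, TIGK minus HaCaT. Of the 16 genes, 7 had a more negative change in TIGK, where 2.98% of all genes were called so. They were MT-ND5 (-1.84, SE 0.094, edgeR adjusted p = 4.7e-10), MT-CO1 (-0.94, SE 0.079, adjusted p = 2.53e-07), MT-ND6 (-0.79), MT-ATP6 (-0.73), MT-ND4L (-0.68), MT-CYB (-0.54) and MT-ND4 (-0.39, adjusted p = 0.00326), all of them protein genes. The call of MT-ND4 was lost in 7 of 12 fits without 1 library, those without HaCaT control replicate 1 or 2, HaCaT H2O2 replicate 1 or 2, TIGK control replicate 2 or TIGK H2O2 replicate 2 or 3, with adjusted p from 0.0115 to 0.0365. MT-ND2 (-0.29, adjusted p = 0.0382) passed without HaCaT H2O2 replicate 3.

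The noncoding genes did not pass this test. MT-RNR1 differed by -0.12 (95% interval -0.40 to 0.16, edgeR adjusted p = 0.611), MT-RNR2 by 0.24 (0.078 to 0.41, adjusted p = 0.0518) and MT-TP by 0.59 (0.26 to 0.92, adjusted p = 0.0182). MT-TP passed without HaCaT H2O2 replicate 1 (0.79, adjusted p = 0.0016). Against the protein genes, a scale on which 39.6% of all genes were called in that direction, the changes of MT-RNR2 and MT-TP were more negative in HaCaT, with differences of 0.77 (SE 0.084, adjusted p = 1.03e-06) and 1.13 (SE 0.16, adjusted p = 1.63e-05). The protein genes MT-ND1 (0.51, adjusted p = 2.57e-05), MT-CO2 (0.36, adjusted p = 0.000382) and MT-CO3 (0.36, adjusted p = 0.000444) were called in the same direction on this scale, while MT-ND5 (-1.32) and MT-CO1 (-0.41) were called in the other, where 0.409% of all genes were. MT-RNR1 differed by 0.41 (SE 0.15, adjusted p = 0.0255). It passed without HaCaT H2O2 replicate 3, TIGK control replicate 1 or TIGK H2O2 replicate 1, with adjusted p from 0.00139 to 0.00887.

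Across the 16 tested genes the log2 fold changes of TIGK went with those of HaCaT (Pearson's r 0.834, Spearman's rho 0.838), a description of genes that share libraries and a chromosome. Properties of the genes were set beside the changes in the same way. Among the 14 plus-strand genes tested, distance from the first base of MT-TF, where the genes begin after the noncoding region, had an r of -0.093 with the change in TIGK and of 0.38 in HaCaT. Gene length had an r of -0.32 and -0.11 over the 16 genes, GC content 0.0070 and 0.26, and the longest run of A in the gene -0.021 and 0.16. Neighbours on the chromosome often changed by different amounts, as MT-CO1 and MT-CO2 did in TIGK (-2.32 and -0.53), with 2 tRNA genes between them.

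The nuclear genome holds copies of mitochondrial genes, which can share reads with them. A stretch of chromosome 1 (629081 to 634924, GRCh38) matched mitochondrial DNA over 5846 aligned bases at 98.5% identity. Of all 150-base windows of a gene, 15.7% of those of MT-ND2, 14.5% of MT-CO1, 10.4% of MT-RNR1 and 1.12% of MT-ND1 had an identical stretch elsewhere in the genome, and none of those of MT-RNR2, MT-ND6 or the other protein genes did. How reads that map to several places were counted is not given in the sources used here, so the counts of those 4 genes are uncertain by the reads they share. At an identity of at least 98% the copies covered more, namely 100% of the bases of MT-ND2, MT-CO1, MT-CO2, MT-ATP8 and MT-ATP6, 70.03% of MT-CO3, 46.1% of MT-ND1 and 44.2% of MT-RNR1, 7.36% of MT-CYB, 2.67% of MT-ND6 and none of MT-RNR2 or MT-TP. Reads from near-identical stretches may also have been placed in either copy. The table listed 407 genes named as copies, 74 of them with at least 1 count, and their counts summed to 1.86% of the mitochondrial counts. Of the 7 copies tested, 4 were lower in TIGK, where 12.9% of all genes were called lower, and 4 in HaCaT, where 15.2% were. The most abundant were MTATP6P1, MTND2P28 and MTCO1P12, all on that stretch, with mean counts of 19422, 4137 and 1024, or 21.5%, 5.76% and 0.393% of those of MT-ATP6, MT-ND2 and MT-CO1. Their log2 fold changes were -0.75, -0.87 and -2.15 in TIGK and -0.21, -0.48 and -1.27 in HaCaT, and each passed the test.

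Of the nuclear genes that make and maintain mitochondrial RNA and DNA, more were called higher than lower. From a list of 38 genes, 7 were higher and 1 lower in TIGK after H2O2, and 13 were higher and 3 lower in HaCaT, with median log2 fold changes of 0.10 and 0.13. Of all genes tested, 10.2% were called higher and 12.9% lower in TIGK, and 18.9% higher and 15.2% lower in HaCaT. Among the 8 genes of transcription, the polymerase included, 1 was higher in TIGK and 3 in HaCaT. MTERF3, a repressor of mitochondrial transcription, was higher by 0.30 in TIGK (SE 0.083, edgeR adjusted p = 0.00874) and by 0.35 in HaCaT (SE 0.085, adjusted p = 0.00272). Of 8 genes that process the transcripts, 2 and 3 were higher, and of 6 that modify the rRNAs, 2 and 2. Of 11 genes of polyadenylation, stability and decay, 1 was higher in TIGK, and 3 were higher and 1 lower in HaCaT. FASTKD1, a mitochondrial RNA-binding protein, was higher by 0.49 (SE 0.066, adjusted p = 1.6e-05) and 0.37 (SE 0.065, adjusted p = 0.000142). Of 5 genes that maintain mitochondrial DNA, 1 was higher and 1 lower in TIGK and 2 and 2 in HaCaT. POLG, the mitochondrial DNA polymerase, was lower by 0.37 and 0.36 on the log2 scale in TIGK and HaCaT, and the nuclease MGME1 was higher by 0.26 and 0.34. Between the untreated lines 21 of the 38 were higher in HaCaT and 3 lower, where 29.1% of all genes were called higher and 30.8% lower. After H2O2 23 were higher and 3 lower, where 30.2% of all genes were called higher and 29.8% lower.

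Since the rRNAs, MT-TP and MT-ND6 have short tails or none, nuclear RNAs that lack a tail were looked at beside them. Of 8 such small RNA genes 6 were at 0 in every library of each group, and their summed level was 30.4 ± 7.1 CPM (SD, n = 3) in TIGK controls and 19.9 ± 1.7 after H2O2, and 36.1 ± 3.5 and 35.0 ± 9.8 in HaCaT. The 1 gene that could be tested, RN7SL2, an RNA of the signal recognition particle, was lower in TIGK (log2 fold change -0.62, SE 0.17, edgeR adjusted p = 0.00914) and had a value of -0.043 in HaCaT (SE 0.17, adjusted p = 0.863). The part of poly(A) selection in the changes of MT-RNR2, MT-TP and MT-ND6 was not tested.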

How the data were processed

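The authors deposited raw read counts per gene, with no normalization, for 58735 genes in 12 libraries. Per the paper's methods they mapped reads to GRCh38 with HISAT2 2.0.5 and counted them with featureCounts 1.5.0-p3. The sample labels name other versions and another provider, and the annotation release, the use of strand and the handling of reads with several positions or genes are not given in the sources used here. The authors' 4 tables of fold changes and p-values were not used. Samples were grouped by their titles. The 37 genes were found by their chromosome, all 37 coordinates matched GENCODE release 44, and sequences came from hg38.

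Genes whose raw counts averaged 10 or more were fitted in R 4.3.3 with edgeR 4.0.16 (quasi-likelihood, 1 mean per group, TMM factors over all 12 libraries), with Benjamini-Hochberg adjustment over all 16618 genes at 0.01, the limit the study applied. A second fit took the summed counts of the 13 mitochondrial protein genes as library size. Its log2 values are relative to those genes, so a protein gene is set there against a sum that holds it. Intervals (95%) use a t quantile of 2.10 at 18.4 degrees of freedom, which applies the first fit's degrees of freedom to both fits. Shares and log2 ratios per library were compared with exact permutation tests, two-sided. The smallest p is 0.1 for 3 against 3 libraries and 0.005 within both lines. Alternatives were DESeq2 1.42.0, fits restricted to the groups in question, other size factors, no low-count filter, other thresholds, replicate number as a block and leaving out each library. The scripts were tested on simulated counts. Library totals lay between 30426401 and 49034244 counts, and replicate pairs differed by 4.53 to 29.7 in chi-square per degree of freedom, more than counting noise, so all were counted as separate libraries. The members, the gene lists and the tests were chosen with earlier results of these data known. All genes of the chromosome are accounted for, and values in every library are given for both rRNAs, MT-ND6, tRNA genes with at least 100 normalized counts in their highest group, and the protein genes with the largest and smallest change in each response. The nuclear lists rest on general knowledge and no database, and up to 4 genes called in both responses in the same direction, with the largest summed change, are named. Nuclear copies are given by counts with the 3 most abundant named. Figures were drawn with matplotlib 3.10.9.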

Additional observations from a re-analysis of the deposited data

Results flagged for a closer look

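The responses of the 2 lines differed by the test of the difference itself for 7 protein genes. The difference of log2 fold changes, TIGK minus HaCaT, was -1.84 for MT-ND5, -0.94 for MT-CO1, -0.79 for MT-ND6, -0.73 for MT-ATP6, -0.68 for MT-ND4L, -0.54 for MT-CYB and -0.39 for MT-ND4, so each of them had the more negative change in TIGK. Relative to the protein genes, the changes of MT-RNR2 and MT-TP differed by 0.77 and 1.13, so both had the more negative change in HaCaT. The protein genes MT-ND1 (0.51), MT-CO2 (0.36) and MT-CO3 (0.36) were called in the same direction, as were 39.6% of all genes tested. Of the 7 protein genes above, MT-ND5 and MT-CO1 passed on this second scale, with -1.32 and -0.41, where 0.409% of all genes were called in that direction. The other 5 did not, with differences of -0.26 for MT-ND6 (edgeR adjusted p = 0.0252), -0.20 for MT-ATP6 (adjusted p = 0.0353), -0.15 for MT-ND4L (adjusted p = 0.197), -0.013 for MT-CYB (adjusted p = 0.905) and 0.14 for MT-ND4 (adjusted p = 0.152), the last with the opposite sign. Groups of 3 libraries are too small for a rule on single outlying libraries.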

How the results depend on the processing

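Of 1504 single-gene values under another setting, 1460 kept direction and side of the limit. Of 657 counts, shares, ratios and fits against the protein genes, 601 were classed as unchanged by a rule for each kind. Requiring a log2 fold change over 1 left 7 genes lower in TIGK, 5 lower in HaCaT, 6 higher in untreated HaCaT and 1 with a more negative change in TIGK. The share of all genes that pass this stricter limit is not given here, so these counts cannot be set against a background. The number with a more negative change in HaCaT went from 0 (2 at an unadjusted p under 0.05) to 1 with DESeq2 (MT-TP), 2 without a filter (MT-TP and MT-RNR2) and 1 at a limit of 0.05 (MT-TP). Of all genes tested, 385 of 16618 were called in that direction in the main fit, 689 of 16618 with DESeq2 and 769 of 33620 without a filter. The number of all genes at a limit of 0.05 is not given here. With TMM-scaled totals the share of mitochondrial counts differed by -2.91 percentage points in the HaCaT response and by 3.06 and 2.09 between the lines before and after H2O2. Over nuclear counts it differed by -2.06 in TIGK, by -3.07 in HaCaT and by 3.08 between untreated lines.

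As a mean of log2 counts the rRNA ratio differed by -0.096 in TIGK, -0.73 in HaCaT and 0.77 between untreated lines. Without MT-ND5 and MT-ND6 in the denominator it was -0.60 in TIGK. With MT-RNR1 alone it was 0.097 in TIGK (reversed), -0.32 in HaCaT, 0.45 between treated lines and -0.11 over both lines (exact permutation test, p = 0.34), and with MT-RNR2 alone -0.61 in TIGK and -1.39 in HaCaT. As a mean of log2 counts the tRNA ratio turned to 1.17 in TIGK, 0.93 in HaCaT and 1.05 over both lines, and was -1.003 and -1.24 between the untreated and the treated lines. In that mean 20 of the 22 tRNA genes enter at 0 counts in every library, so it follows the protein genes. Without MT-ND5 and MT-ND6 it was -0.19 in TIGK. With MT-ND5 alone in the denominator the MT-ND6 ratio was -0.54 in TIGK, -1.59 in HaCaT, -0.089 between untreated lines and -1.14 between treated lines. The cause of the other changes was not tested. The 14 plus-strand tRNA genes alone gave no ratio, since they held 4 counts in all.

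MT-RNR1 against the protein genes in HaCaT was -0.11 (adjusted p = 0.306) with all mitochondrial genes as the scale. The difference of responses of MT-ND1 (-0.017) turned to 0.0057 with DESeq2 and with RLE size factors, 0.033 with TMM without mitochondrial genes and 0.042 without a filter, and that of MT-RNR1 to 0.041 without TIGK control replicate 1. Other calls of single genes that changed are those of MT-ATP6, MT-ND2 and MT-ND3 in HaCaT and MT-RNR2 and MT-ND3 in the difference of responses, which passed under at least 1 setting, and of MT-TP between untreated lines, which was lost with RLE size factors (adjusted p = 0.0117) and without TMM (0.0461).

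Leaving out 1 library at a time gave 12 to 14 genes lower in HaCaT, 0 to 1 lower in treated HaCaT than in treated TIGK, 6 to 8 genes with a more negative change in TIGK and 0 to 1 with a more negative change in HaCaT. Of the 16618 genes tested in each of these fits, 2043 to 2796, 4642 to 5156, 186 to 637 and 266 to 704 were called in these directions, in the same order. MT-RNR1 against the protein genes ranged from -0.019 to 0.24 in TIGK, -0.39 to -0.27 in HaCaT and 0.30 to 0.56 in the difference of responses. The difference of MT-ND1 ranged from -0.093 to 0.088, and that of MT-RNR1 from -0.22 to 0.041. The MT-RNR1 to MT-RNR2 ratio ranged from -0.058 to 0.16 between untreated lines, and the MT-ND6 ratio from -0.073 to 0.044 between treated lines.

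Replicate numbers are shared by the groups, but libraries with the same number did not deviate together (correlations of -0.032 to 0.026). A replicate block was fitted within lines for the responses and their difference, and by replicate number across lines for the comparisons between lines. It took the call from MT-RNR1 against the protein genes in HaCaT (-0.32, edgeR adjusted p = 0.0303) and from MT-ND4 in the difference of responses (-0.39, adjusted p = 0.0149), and changed no other call of a tested mitochondrial gene. The block was not fitted for the comparisons between lines on the scale of the protein genes. The tRNA genes other than MT-TP held 0 counts or, at MT-TF, 4 counts in all and could not be tested at this depth.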
